A study of Homo sapiens with 6 samples.

Results

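The comparison of p63 shRNA on against control uses 4 of the 6 arrays of the series: the 2 arrays titled shp63 ON and the 2 titled shp63 OFF normal growth. All 6 arrays carry total RNA of H226, an established cell line of human lung squamous cell carcinoma, plated in RPMI with 10% fetal calf serum 24 h before treatment. In shp63 ON, 48 h of doxycycline at 1 µg/mL switched on a short hairpin RNA against p63. The control cells carried the hairpin in its off state and were untreated. A further group of 2 arrays, also with the hairpin off, received 10 µM Nutlin-3 for 12 h and is used here only as a second reference. The question was which genes rose and fell when p63 was lowered. No array has doxycycline without the hairpin or with another hairpin, so the hairpin, its possible off-target effects and doxycycline itself cannot be told apart. The labels do not say whether the arrays of a group came from separate cultures, so p-values measure the spread between these arrays. The gene targeted by the hairpin was not analysed here, so the knockdown was not checked at its own transcript.

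p63 is a transcription factor of the p53 family and the master regulator of stratified epithelia. Its short, N-terminally truncated form prevails in basal keratinocytes and in squamous carcinomas, where it sustains proliferation, holds back cell cycle arrest and controls adhesion, keratin and differentiation genes. It both activates and represses transcription. Nutlin-3 frees p53 from its inhibitor MDM2 and stops the cell cycle by a separate route, which makes it a useful second reference for growth arrest.

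Genes were taken from probe sets that name exactly 1 gene, and the probe set with the highest mean stood for each of the 18404 genes. Values are log2 intensities. A log2 fold change is the shp63 ON mean minus the control mean, with limma's standard error (SE), and a gene was called when the Benjamini-Hochberg adjusted p of limma's moderated test over all genes was under 0.05. In shp63 ON 6670 genes (36.2%) were called, 3634 higher (19.7%) and 3036 lower (16.5%). At 1.5-fold or more the balance lay the other way, with 314 genes higher (1.71%) and 858 lower (4.66%). With 2 arrays a group, shp63 ON and control arrays failed to overlap for 13190 genes (71.7%), so separation of the arrays alone says little about a gene.

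The change depended on the level of a gene. The median log2 fold change was 0.04 over all genes, 0.17 for the 3167 genes whose mean level lay at 6 to 7, and −0.07 for the 2093 at 9 to 10. Of the genes at 6 to 7, 34.7% were called higher and 10.1% lower, while at 8 to 9 17.0% were higher and 28.4% lower. The running median along the level went from 0.21 at a level of 6.41 to −0.10 at 8.78. Cyclic loess normalization removes such a trend. After it 2456 genes were higher (13.3%) and 3003 lower (16.3%). Of the original calls 2137 higher and 2613 lower were kept in the same direction, and 0 turned. For each gene group below, a count that moved by 1.5 times or more after cyclic loess is given with its value there. Leaving out control replicate 1, control replicate 2, shp63 ON replicate 1 or shp63 ON replicate 2 lowered the calls to 1895, 1639, 1986 and 2424 higher and to 2037, 1815, 2153 and 2308 lower.

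**Figure D1:**
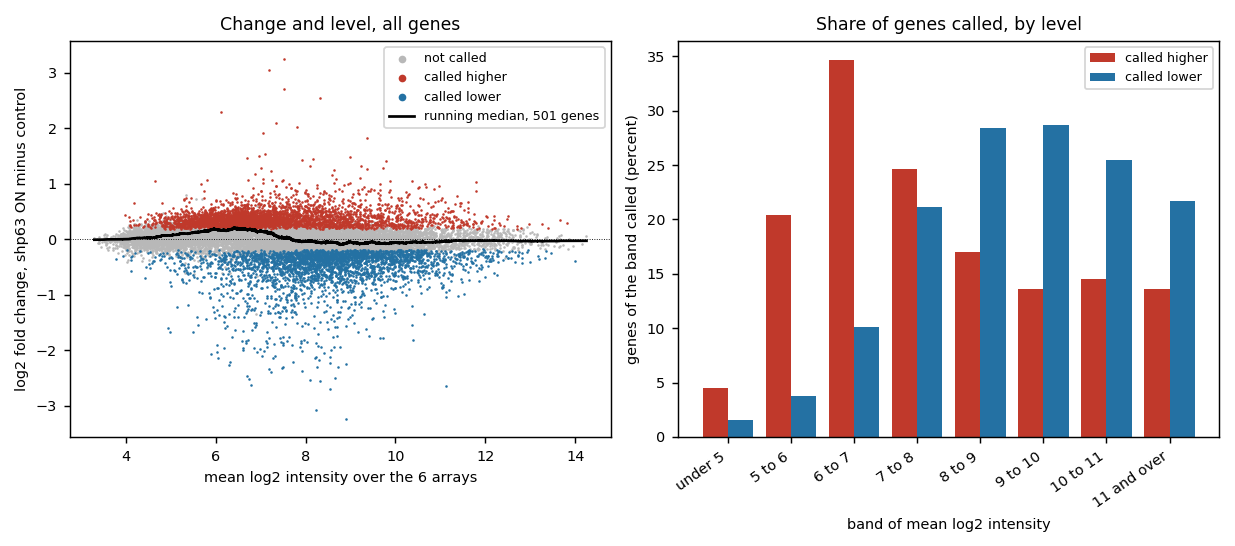
Left, log2 fold change of each gene (shp63 ON minus control) against its mean log2 intensity over the 6 arrays, with the running median as a black line and called genes coloured. Right, the percentage of genes called higher and lower in each band of mean level; higher calls peak at 34.7% in the band of 6 to 7 and lower calls at 28.7% in the band of 9 to 10.

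Gene medians lay between 7.26 and 7.33 on the 6 arrays, and the correlation over genes was 0.998 between the control arrays and 0.9974 between the shp63 ON arrays. The 16 measured squamous carcinoma line markers had a mean log2 intensity of 10.05 and 10.06 in control and 9.87 and 9.83 in shp63 ON. KRT5, a basal keratin, stood at 12.23 and 12.33 in control. The leukocyte marker PTPRC stood at 4.48 and 4.26 in control and 4.27 and 4.24 in shp63 ON, and the endothelial marker PECAM1 at 5.22 and 5.02 against 5.06 and 5.08. Of 11 endothelial markers 4 were called higher and 0 lower (2 and 1 after cyclic loess). Among the higher ones were CDH5 (0.57), ESAM (0.35) and ERG (0.33), the call of ESAM being lost after cyclic loess. SOX2, often high in squamous lung carcinoma, stood at 5.76 and 5.79 in control and 5.74 and 5.78 in shp63 ON.

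Promoter sequences of the cell division and interferon genes with large changes are shown, the former because most genes of these groups fell together and the latter because 2 of the larger rises lie in a list that rose in part. In textbook accounts, the cell cycle genes homology region (CHR) and CCAAT boxes mark promoters of genes used in G2 and mitosis, E2F sites mark genes used at the start of S phase, and the interferon response element marks genes induced by interferon. The sequences are the 250 bases before the gene start in the RefSeq table for GRCh38.p14, which had a promoter for 14230 of the genes measured. In the first 4, capitals mark CHR (TTTGAA) and CCAAT matches on either strand. CDK1, the mitotic kinase, lies on the plus strand with this window at chr10:60778081-60778330. MKI67, the proliferation antigen Ki-67, lies on the minus strand at chr10:128126424-128126673, and 1 of its CHR matches overlaps a CCAAT match. CKAP2L, a spindle protein, lies on the minus strand at chr2:112764610-112764859, and KIF11, the kinesin that separates spindle poles, on the plus strand at chr10:92592880-92593129.
CDK1: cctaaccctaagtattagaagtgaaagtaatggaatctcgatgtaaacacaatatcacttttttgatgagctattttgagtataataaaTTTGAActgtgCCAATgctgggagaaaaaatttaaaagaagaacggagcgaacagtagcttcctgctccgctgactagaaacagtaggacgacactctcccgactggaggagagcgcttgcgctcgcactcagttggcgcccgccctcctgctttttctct
MKI67: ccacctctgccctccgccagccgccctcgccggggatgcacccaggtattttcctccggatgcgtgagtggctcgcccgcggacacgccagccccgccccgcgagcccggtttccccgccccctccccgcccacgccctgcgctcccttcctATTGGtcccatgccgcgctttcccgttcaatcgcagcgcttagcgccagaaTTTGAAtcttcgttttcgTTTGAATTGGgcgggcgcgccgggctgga
CKAP2L: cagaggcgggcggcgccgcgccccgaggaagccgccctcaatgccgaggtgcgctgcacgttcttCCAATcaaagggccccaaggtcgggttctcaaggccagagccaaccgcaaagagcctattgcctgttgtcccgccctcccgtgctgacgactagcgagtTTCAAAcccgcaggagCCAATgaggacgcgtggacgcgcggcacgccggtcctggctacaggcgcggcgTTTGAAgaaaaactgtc
KIF11: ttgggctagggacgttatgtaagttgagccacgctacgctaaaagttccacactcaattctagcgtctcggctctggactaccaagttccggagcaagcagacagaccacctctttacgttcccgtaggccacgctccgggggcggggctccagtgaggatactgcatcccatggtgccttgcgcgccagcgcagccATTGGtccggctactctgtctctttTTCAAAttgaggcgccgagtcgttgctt

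The next 2 sequences carry E2F matches in capitals (TTTGGCGC, TTTCCCGC or TTTGGCGG, either strand). Both also hold CCAAT matches, which are left in lower case. DTL, a substrate receptor that degrades replication factors, lies on the plus strand at chr1:212035498-212035747, and its match ends at the gene start. CDC6, which loads the replicative helicase, lies on the plus strand at chr17:40287629-40287878. The last pair belongs to interferon-stimulated genes, with matches to the interferon response element (GAAA, any 2 bases, then GAAA, on either strand) in capitals. SAMD9L, a growth-restraining antiviral factor, lies on the minus strand at chr7:93148386-93148635 and has 0 matches in this window. DDX60L, a helicase-family antiviral factor, lies on the minus strand at chr4:168480493-168480742 and has 2.
DTL: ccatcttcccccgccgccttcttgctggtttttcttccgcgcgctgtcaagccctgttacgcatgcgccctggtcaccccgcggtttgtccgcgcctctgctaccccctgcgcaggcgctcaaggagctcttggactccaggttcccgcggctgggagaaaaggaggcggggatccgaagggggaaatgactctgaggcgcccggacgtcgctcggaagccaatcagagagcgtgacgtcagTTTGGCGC
CDC6: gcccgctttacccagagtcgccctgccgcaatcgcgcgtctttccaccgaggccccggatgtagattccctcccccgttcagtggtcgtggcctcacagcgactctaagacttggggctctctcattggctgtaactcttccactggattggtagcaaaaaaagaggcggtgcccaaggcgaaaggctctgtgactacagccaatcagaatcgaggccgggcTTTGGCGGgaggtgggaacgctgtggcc
SAMD9L: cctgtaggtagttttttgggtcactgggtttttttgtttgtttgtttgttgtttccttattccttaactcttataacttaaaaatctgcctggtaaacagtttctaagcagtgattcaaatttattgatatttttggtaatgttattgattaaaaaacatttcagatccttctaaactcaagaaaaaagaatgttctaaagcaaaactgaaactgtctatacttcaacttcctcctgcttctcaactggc
DDX60L: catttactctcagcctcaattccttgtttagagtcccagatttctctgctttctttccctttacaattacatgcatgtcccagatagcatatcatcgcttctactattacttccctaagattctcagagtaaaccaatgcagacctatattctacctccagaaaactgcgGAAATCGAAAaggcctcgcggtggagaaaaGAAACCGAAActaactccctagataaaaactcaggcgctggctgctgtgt

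These letters were unevenly spread over the gene lists. The 250-base window held a CHR match in 10.6% of all measured promoters, in 46.4% of the mitotic entry and checkpoint promoters (13 of 28) and in 51.9% of the spindle and kinesin promoters (14 of 27), but in 0 of 25 origin licensing promoters. An E2F match stood in 3.33% of all promoters, in 40.0% of the licensing and helicase promoters (10 of 25) and in 33.3% of the polymerase and clamp promoters (7 of 21). CHR and CCAAT matches stood together in 4.09% of all promoters, in 35.7% of the mitotic and in 44.4% of the spindle promoters. CCAAT matches of any kind were in 34.4% of all promoters, 75.0% of the mitotic and 70.4% of the spindle promoters. They were also in 72.0% of the licensing (18 of 25) and 85.2% of the histone promoters. A CCAAT match alone therefore did not set the mitotic lists apart. The short CHR match is not confined to cell division genes. Of olfactory receptor promoters 33.2% (91 of 274) had a CHR match and 13.5% had both. Interferon element matches stood in 2.57% of all promoters and in 58.8% of the interferon-stimulated list (20 of 34). Among genes called lower by 1.5-fold or more, 8.47% of promoters had an E2F match and 15.8% a CHR match, against 2.8% and 11% of genes that did not pass the test. Among genes called higher by 1.5-fold or more the shares were 1.61% and 11.2%. A match is a description of letters, not a shown binding site, and these shares were not tested.

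Genes that start DNA replication fell as a block. Each array measures a whole culture, so fewer cells in a phase of the cycle and less RNA per cell cannot be told apart. Of 28 origin licensing and helicase genes 27 were called lower and 0 higher, the same counts after cyclic loess, with a median log2 fold change of −1.19 against 0.04 over all genes. DTL stood at 10.29 and 10.38 in control and at 7.76 and 7.85 in shp63 ON, which is 5.79-fold lower (log2 fold change −2.53, SE 0.11, adjusted p 9.87e-06 by limma). CDC6 went from 9.89 and 9.83 to 7.80 and 7.16, a fall of 2.38 (SE 0.24, adjusted p 0.000431 by limma), with the shp63 ON arrays further apart than for most genes of the list. MCM10, a helicase activator, fell by 2.39, and GINS2, a subunit of the helicase complex, by 2.30. Of 25 polymerase, clamp and Okazaki fragment genes 23 were lower (25 after cyclic loess) and 0 higher. POLE2, the second subunit of the leading-strand polymerase, fell by 2.07, and the primase PRIM1 fell by 1.89. The Fanconi and homologous recombination list, which repairs broken forks, had 21 of 23 members lower, among them XRCC2 (−2.29), FANCI (−2.12) and the helicase BLM (−2.10). PCLAF, which binds the sliding clamp, fell by 2.62, with a second probe set at −1.0.

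The G1 and S phase regulators moved with them. Of 20 G1 cyclins, CDKs and E2F genes 17 were lower and 1 higher. CCNE2, a cyclin of the G1 to S transition, stood at 9.54 and 9.56 in control and 7.34 and 7.12 in shp63 ON (log2 fold change −2.33, adjusted p 9.87e-06 by limma). E2F7, a repressor of late S phase that is itself a p53 target, fell by 1.61. E2F1 fell by 0.47, a smaller change than in the Nutlin-3 arrays (−1.69), and the difference between shp63 ON and Nutlin-3 was 1.21 (adjusted p 1.51e-05 by limma). CCND3, a D-type cyclin, was the member called higher: 11.34 and 11.35 in control, 12.04 and 11.97 in shp63 ON, a rise of 0.66. CCND1 stood at 11.82 and 11.88 against 11.65 and 11.68 and did not pass the test (adjusted p 0.0528 by limma). MYC, named after its values were seen, stood at 10.85 and 10.89 in control and 9.30 and 9.37 in shp63 ON, 2.9-fold lower (adjusted p 8.34e-06 by limma), and at 10.96 and 10.89 in the Nutlin-3 arrays.

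**Figure D2:**
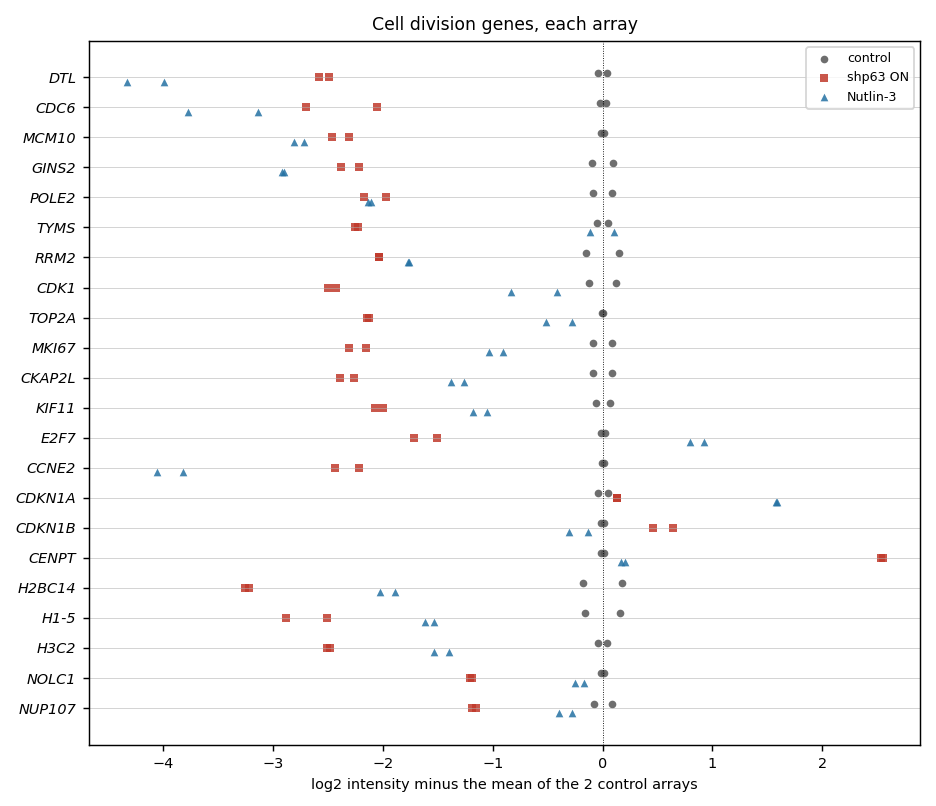
Log2 intensity of 22 cell division and growth genes on each array, minus the mean of the 2 control arrays of that gene; circles are control, squares shp63 ON and triangles Nutlin-3 arrays. TYMS, CDK1, TOP2A and E2F7 are lower in shp63 ON than in Nutlin-3, DTL and CCNE2 are lower in Nutlin-3, and CENPT is higher in shp63 ON alone of the 3 groups.

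Mitotic genes fell by as much. Of 35 mitotic entry and checkpoint genes 31 were lower (33 after cyclic loess) and 1 higher, with a median of −1.31. CDK1 stood at 7.59 and 7.84 in control and 5.21 and 5.29 in shp63 ON, 5.52-fold lower (SE 0.14 on the log2 scale, adjusted p 3.03e-05 by limma). MKI67 stood at 9.52 and 9.70 against 7.46 and 7.31, 4.69-fold lower (SE 0.09, adjusted p 7.52e-06 by limma). TOP2A, which untangles sister DNA, fell by 2.14 and cyclin A2 (CCNA2) by 2.05. FZR1, an activator of the anaphase-promoting complex in G1, was called higher by 0.22, and the call was lost without any 1 of the 4 control or shp63 ON arrays (0 higher each). Of 31 spindle and kinesin genes 29 were lower, with CKAP2L (−2.33), KIF11 (−2.04) and PRC1 (−1.93), an organiser of the midzone, furthest down; without control replicate 1 the list also had 1 higher call. Of 20 condensin and cohesin genes 17 were lower, led by the cohesin acetyltransferase ESCO2 (−2.52) and the condensin subunit NCAPG (−2.13).

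The kinetochore list held an exception. Of its 32 genes 28 were lower, led by SKA3 (−2.21) and CENPK (−2.01). CENPT, which links centromeric chromatin to the microtubule-binding complex, stood at 7.41 and 7.44 in control, 9.95 and 9.97 in shp63 ON and 7.63 and 7.59 in Nutlin-3. It was 5.82-fold higher in shp63 ON than in control (log2 fold change 2.54, SE 0.06, adjusted p 4.49e-06 by limma), the 1 member of this list called higher, while its partner NDC80 fell by 1.43. CENPT is covered by a single probe set, so no second measurement within these arrays bears on it.

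The lowest log2 fold change of any list belonged to a histone transcript. Of 59 histone genes 37 were called lower (42 after cyclic loess) and 4 higher (1 after it). H2BC14 stood at 10.45 and 10.80 in control and 7.37 and 7.41 in shp63 ON, 9.42-fold lower (SE 0.11, adjusted p 6.46e-06 by limma). The linker histone H1-5 (−2.69), H3C2 (−2.50) and H4C13 (−2.0) fell too. Most of these genes are replication-dependent, and near-identical copies make the share of each uncertain. H2BC21, a histone gene also transcribed outside S phase, rose from 7.64 and 7.90 to 8.68 and 8.49 (log2 fold change 0.81, adjusted p 0.00265 by limma), and its call was lost under the unmoderated analysis of variance. The higher count was 1 without control replicate 1, 1 without control replicate 2 and 2 without shp63 ON replicate 1. H2AZ1, a histone variant placed at promoters, fell by 1.02, from 9.89 and 9.88 to 8.91 and 8.82. Of 24 chromatin genes of proliferating cells 20 were lower, among them the helicase HELLS (−1.95), the histone chaperone ASF1B (−1.83) and ATAD2 (−1.58). UHRF1, which maintains DNA methylation, fell by 1.61 on its brighter probe set, but its other probe set stood at 0.13.

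Enzymes that supply nucleotides fell in 20 of 23 cases, with a median of −0.635 and 0 higher. TYMS, the thymidylate synthase, stood at 9.59 and 9.70 in control and 7.42 and 7.38 in shp63 ON, 4.73-fold lower (SE 0.09, adjusted p 6.98e-06 by limma). RRM2, the regulated subunit of ribonucleotide reductase, fell by 2.04, and TK1 (−1.53) and RRM1 (−1.41) fell as well. RRM2B, the p53-induced subunit, stood at 9.77 and 9.78 against 9.69 and 9.76 and did not pass the test.

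The machinery of growth fell as well, by less per gene. Of 38 ribosome biogenesis genes 36 were lower and 0 higher, with a median of −0.63. NOLC1, a nucleolar scaffold, stood at 10.83 and 10.85 in control and 9.63 and 9.66 in shp63 ON, 2.30-fold lower (SE 0.06, adjusted p 2.2e-05 by limma). POLR1E, a subunit of RNA polymerase I, fell by 1.17, and the pseudouridine synthase DKC1 fell by 1.13. Of 31 nuclear pore and transport genes 30 were lower (26 after cyclic loess), including NUP107 (−1.17) and the Ran-binding protein RANBP1 (−1.02). Of 46 spliceosome genes 31 were lower, including the splicing factor SRSF7 (−0.95), and 20 were without control replicate 2. These 3 lists had 0 genes called higher.

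Translation genes showed smaller falls. Their lower calls were fewer whichever control or shp63 ON array was left out, as were those over all genes. Of 78 cytoplasmic ribosomal protein genes 39 were lower and 4 higher (2 after cyclic loess), with a median of −0.22 and RPS24 (−0.73) furthest down. The lower count was 24, 18 and 23 without control replicate 1, control replicate 2 and shp63 ON replicate 2, and the higher count was 0 or 1 without any 1 of the 4 arrays. RPS28 was called higher (0.29), but its other probe sets stood at −0.10 and −0.37, the mean of its probe sets gave −0.06, and the call was lost without any 1 of the 4 arrays. Of 37 translation factors 19 were lower and 0 higher (1 after cyclic loess), led by EIF3E (−0.81), a count of 10, 10, 12 and 11 without control replicate 1, control replicate 2, shp63 ON replicate 1 and shp63 ON replicate 2. Of 26 chaperonin and heat shock genes 15 were lower, among them the ring subunits CCT6A (−0.58) and CCT2 (−0.57). The proteasome had 10 of 28 lower, 5 after cyclic loess, and 3, 2, 6 and 6 without the same 4 arrays in that order. Of 73 mitochondrial ribosomal protein genes 21 were lower and 4 higher, and 6, 13 and 11 were lower, and 1, 2 and 2 higher, without control replicate 2, shp63 ON replicate 1 and shp63 ON replicate 2.

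**Figure D3:**
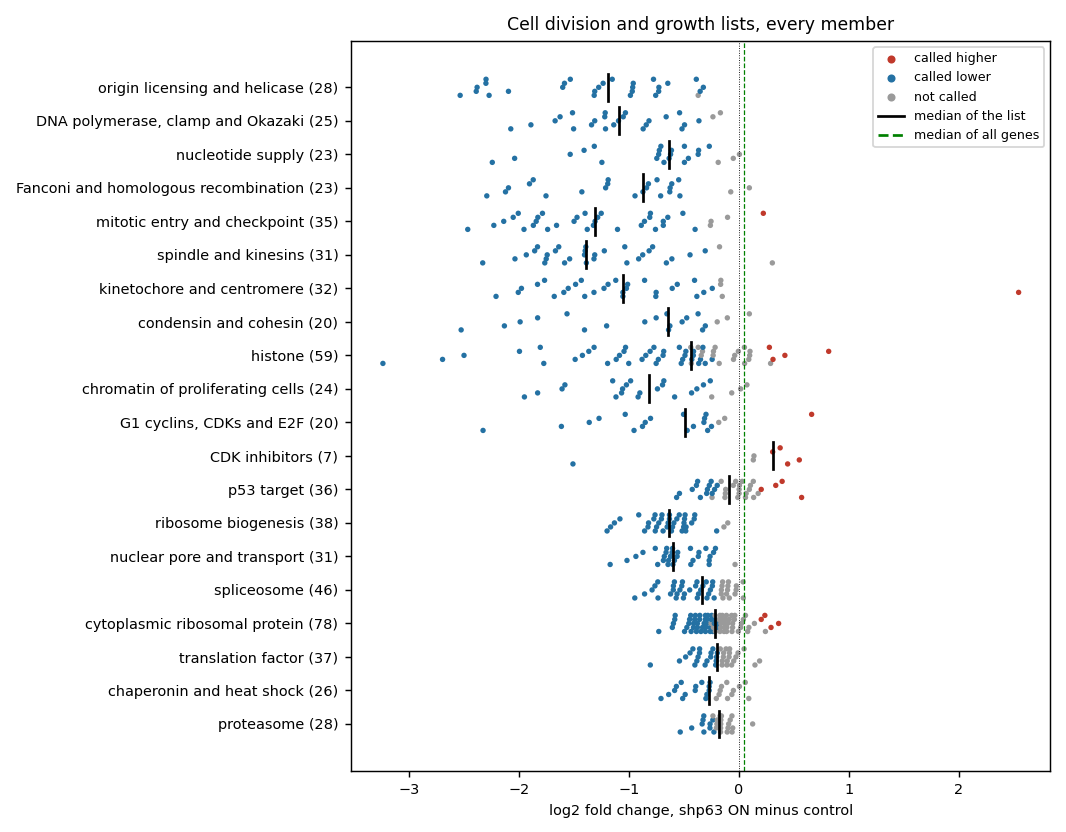
Log2 fold change (shp63 ON minus control) of every measured member of 20 cell division and growth lists, with the number of members in brackets; red points were called higher, blue lower and grey neither, and the black bar is the list's median. Replication, mitosis, spindle and histone members reach −2 to −3, ribosome biogenesis and nuclear pore members lie near −0.6, and the p53 target list lies near 0.

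Inhibitors of cyclin-dependent kinases rose in 4 of 7 cases. CDKN1B (p27) stood at 8.42 and 8.39 in control and 9.05 and 8.86 in shp63 ON (log2 fold change 0.55, SE 0.09, adjusted p 0.00342 by limma), and its call was lost under the unmoderated analysis of variance. CDKN2B (p15), an inhibitor of the G1 kinases, rose by 0.44 and CDKN2D (p19) by 0.37. CDKN3, a phosphatase that itself peaks in mitosis, fell by 1.51. CDKN1A (p21), the main p53-induced inhibitor, stood at 10.21 and 10.30 in control, 10.38 and 10.39 in shp63 ON and 11.85 and 11.84 in Nutlin-3. Its change in shp63 ON was 0.13 (SE 0.06, adjusted p 0.15 by limma), and it was lower in shp63 ON than in Nutlin-3 by 1.46 on the log2 scale (adjusted p 7.96e-06 by limma).

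The p53 targets did not rise together. Of 36 members 4 were higher and 13 lower (3 and 7 after cyclic loess), with a median of −0.09. In the Nutlin-3 arrays, which share the control arrays, 32 of 36 were higher with a median of 1.20, and 0 were lower, against 9.64% and 8.89% of all genes. In the direct comparison of shp63 ON with Nutlin-3, 31 members were lower and 1 higher, against 24.0% and 27.5% of all genes. SESN1, a stress-induced inhibitor of growth signalling, stood at 8.23 and 8.14 in control, 7.74 and 7.51 in shp63 ON and 9.92 and 9.86 in Nutlin-3, with the 3 groups apart. CMBL fell by 0.54 and FAS, a death receptor, by 0.35. BBC3 (PUMA), a trigger of apoptosis, rose by 0.57 (adjusted p 0.00501 by limma), a call lost under the unmoderated analysis of variance. GDF15 rose by 0.39, a call lost under the same analysis of variance and without control replicate 1 or shp63 ON replicate 1. The fall of MDM2 (0.42 on the log2 scale) was called at an adjusted p of 0.0455 by limma and was lost after cyclic loess and without any 1 of the 4 arrays. Without control replicate 1, control replicate 2, shp63 ON replicate 1 and shp63 ON replicate 2 the lower count was 5, 4, 5 and 6 and the higher count 1, 2, 1 and 3.

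The interleukin 1 genes gave the largest inflammatory change. Over their whole list 23.1% of genes were lower and 15.4% higher, against 16.5% and 19.7% of all genes. IL1B stood at 8.76 and 9.04 in control, 5.82 and 5.83 in shp63 ON and 10.04 and 9.94 in Nutlin-3. It was 8.42-fold lower in shp63 ON than in control (SE 0.10 on the log2 scale, adjusted p 5.46e-06 by limma) and lower than in Nutlin-3 by 4.17 on the log2 scale (adjusted p 1.05e-06 by limma). IL1A, the cell-bound form, went from 11.89 and 11.88 to 9.15 and 9.33, 6.26-fold lower. CASP1, the protease that matures IL1B, fell by 1.20 and rose by 1.24 in Nutlin-3. IL1RN, the receptor antagonist, stood at 8.21 and 8.36 against 8.87 and 8.72, a rise of 0.51 (adjusted p 0.00935 by limma). Its call was lost under the unmoderated analysis of variance and without control replicate 1 or shp63 ON replicate 1. Over the whole interleukin 1 and inflammasome list 6 of 26 genes were lower and 4 higher, and the higher count was 1, 2, 1 and 2 without control replicate 1, control replicate 2, shp63 ON replicate 1 and shp63 ON replicate 2.

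Other cytokines and the NF-kB regulators did not follow interleukin 1. Of 33 chemokine and cytokine genes 9 were higher and 1 lower (6 and 2 after cyclic loess), and the median of 0.16 lay near that of genes at the same level (level-adjusted median 0.09). CXCL8, which attracts neutrophils, stood at 6.2 and 6.43 in control and 7.58 and 7.21 in shp63 ON (log2 fold change 1.07, SE 0.13, adjusted p 0.000956 by limma). CXCL11, a T cell attractant, rose by 0.99, and both calls were lost under the unmoderated analysis of variance. IL24 fell by 0.92. CXCL10 stood at 4.14 and 4.21 against 4.23 and 4.07, at the dim end of the arrays. Of 23 NF-kB regulators 5 were higher (21.7%, against 19.7% of all genes) and 3 lower (13%, against 16.5%; 2 after cyclic loess): ICAM1, an adhesion receptor, rose by 0.60, TNFAIP3, a feedback inhibitor, fell by 0.46, and NFKBIA did not pass the test (0.10). The chemokine list had 4 and 5 higher without control replicate 2 and shp63 ON replicate 2, and 2 lower without shp63 ON replicate 1 or either Nutlin-3 array, and without control replicate 1, control replicate 2 or shp63 ON replicate 1 the NF-kB list had 3.

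Interferon-stimulated genes rose in part. Of 43 members 16 were higher and 4 lower (11 and 3 after cyclic loess), with a median of 0.24 and a level-adjusted median of 0.14. SAMD9L stood at 7.43 and 7.44 in control, 8.96 and 8.77 in shp63 ON and 7.43 and 7.51 in Nutlin-3, 2.7-fold higher in shp63 ON than in control (SE 0.08 on the log2 scale, adjusted p 2.73e-05 by limma). Its neighbour SAMD9 went from 9.19 and 9.20 to 9.69 and 9.51 (log2 fold change 0.41, adjusted p 0.00586 by limma). GBP2, a guanylate-binding protein of the antimicrobial response, stood at 6.82 and 6.80 against 8.07 and 8.01, a rise of 1.23 with its second probe set at 1.07. DDX60L rose by 0.86 and the RNA sensor RIGI by 0.54.

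Several classical interferon markers did not pass the test. IFI44 stood at 4.21 and 4.24 in control and 4.34 and 4.15 in shp63 ON, and DDX60 changed by 0.06. MX1 stood at 6.62 and 6.76 in control and at 7.54 and 6.70 in shp63 ON, and IFI6 at 7.29 and 7.43 against 8.26 and 7.55, so that shp63 ON replicate 1 was the high array for both. Of the 43 members 33 were higher in shp63 ON replicate 1 than in replicate 2, with a median difference of 0.10, against 9648 of 18404 and 0.01 over all genes; the part of this spread in the calls was not tested. OAS3, an RNA-sensing synthetase, fell by 0.34, and EIF2AK2, the kinase PKR, by 0.40. The number of members called higher fell without either control array or shp63 ON replicate 1, but rose without shp63 ON replicate 2. It therefore depended on which shp63 ON array was kept. The number called lower fell without any of these arrays.

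Class I presentation and complement genes had more higher than lower calls. The list that joins APOBEC and DNA sensing genes had more lower ones (26.3% lower and 15.8% higher, against 16.5% and 19.7% of all genes). Of 14 class I presentation genes 5 were higher and 1 lower. B2M, the light chain of class I molecules, stood at 9.77 and 9.79 in control and 10.40 and 10.38 in shp63 ON (log2 fold change 0.61, SE 0.07, adjusted p 0.0008 by limma), and NLRC5, the transactivator of class I genes, rose by 0.65. HCP5, a noncoding transcript within the class I region, rose by 2.02, from 7.08 and 6.87 to 9.02 and 8.97. Of 21 complement and acute phase genes 10 were higher and 0 lower, led by CD55 (0.66), which protects cells from complement. C2 and CFB also counted as higher, but another probe set of C2 stood at −0.13, and others of CFB at 0.70 and −0.16. Both calls were lost when the probe sets of the gene were averaged. Among 19 APOBEC and DNA sensing genes 3 were higher and 5 lower. APOBEC3H rose by 0.785, TLR3 by 0.73 and STING1 by 0.62. APOBEC3B, a DNA-editing enzyme often high in carcinoma, fell from 9.34 and 9.53 to 8.30 and 8.32 (log2 fold change −1.12). APOBEC3C (−0.32) and the sensor CGAS (−0.66) fell too. The call of CGAS was lost under the unmoderated analysis of variance and without control replicate 2 or shp63 ON replicate 1. TLR3 also rose in Nutlin-3 (0.88). The complement count was 5, 6, 6 and 6 without control replicate 1, control replicate 2, shp63 ON replicate 1 and shp63 ON replicate 2. The class I list had 3 higher without control replicate 1 or shp63 ON replicate 1 and 0 lower without these or control replicate 2, and the sensing list 3 lower without control replicate 2.

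Genes described as raised by p63 were called lower more often than all genes. Of 40 members 17 were lower (42.5%, against 16.5% of all genes) and 8 higher (20%, against 19.7%), with 11 lower without control replicate 2. The list was assembled from general knowledge of p63 with earlier results of these arrays known, so its count is no independent check of the knockdown. FST, which binds activin, stood at 9.07 and 9.32 in control, 7.26 and 7.26 in shp63 ON and 9.80 and 9.84 in Nutlin-3, 3.84-fold lower in shp63 ON than in control (SE 0.09 on the log2 scale, adjusted p 1.14e-05 by limma). GPX2, a glutathione peroxidase, fell by 1.06, JAG1, a Notch ligand, by 0.76 and ITGB4, the integrin of hemidesmosomes, by 0.75. IGFBP3, also placed in this list, rose from 8.21 and 8.21 to 9.41 and 9.33 (log2 fold change 1.16, adjusted p 3.6e-05 by limma). Whether the truncated form of p63 raises or represses each member was not tested. The calcium-binding S100A2, a target shared with p53, fell from 8.81 and 8.82 to 6.86 and 6.51 (−2.13). PERP, ITGA6, ITGA3, EGFR and KRT14, widely used as p63 targets, did not pass the test; their log2 fold changes were −0.05, −0.09, 0.11, −0.10 and 0.03.

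The keratin list and the laminin, hemidesmosome and integrin list had more higher than lower calls. Keratins were higher in 29.2% and lower in 4.2% of cases, and the second list in 26.7% and 6.7%. Over all genes the shares were 19.7% and 16.5%. The lower calls were KRT5, ITGB4 and LAMB3. Of 24 keratins 7 were higher and 1 lower. KRT5, the lower one, went from 12.23 and 12.33 to 11.96 and 11.87 (log2 fold change −0.37, adjusted p 0.00817 by limma). Its call was lost without control replicate 2 and under the unmoderated analysis of variance. KRT13, a keratin of non-cornified mucosa, rose from 10.81 and 10.82 to 11.60 and 11.52 (0.74). Of 30 laminin, hemidesmosome and integrin genes 8 were higher and 2 lower, and without control replicate 2 4 were higher. ITGA5, the fibronectin receptor subunit, rose by 0.44 and the laminin chain LAMB1 by 0.49, while ITGB4 and the laminin chain LAMB3 (−0.36) fell. LAMB3 was not called without control replicate 2 or under the unmoderated analysis of variance. The keratin list had 4, 3 and 4 higher without control replicate 1, control replicate 2 and shp63 ON replicate 2.

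Desmosomal cadherins changed in both directions. DSG3, the basal desmoglein, stood at 9.03 and 9.12 in control, 8.33 and 8.37 in shp63 ON and 11.12 and 11.10 in Nutlin-3; it fell by 0.73 against control (SE 0.06, adjusted p 0.000237 by limma) and its difference from Nutlin-3 was −2.76. DSC3, its desmocollin partner, fell by 0.57. DSC2 rose by 0.41, and the tight junction genes CLDN4 (8.27 and 8.26 to 9.06 and 9.01; 0.78), TJP3 (0.77) and CGN (0.57) rose. CDH1, the epithelial cadherin, went from 12.21 and 12.20 to 12.41 and 12.40 (0.20, adjusted p 0.0333 by limma). In all, 10 of 27 desmosome and tight junction genes were higher and 3 lower (2 after cyclic loess), with 6 higher without control replicate 2 or shp63 ON replicate 1.

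Late differentiation genes of squamous epithelium were called higher in 17 of 38 cases and lower in 2, but the counts were 9 and 1 after cyclic loess, and the median of 0.22 became 0.09 relative to genes of the same level. FLG, the filament-aggregating protein of the horny layer, stood at 5.32 and 5.53 in control and 6.28 and 6.70 in shp63 ON (log2 fold change 1.06, SE 0.14, adjusted p 0.0015 by limma), a call lost under the unmoderated analysis of variance. The envelope proteins PPL (0.83) and SCEL (0.72) rose, also after cyclic loess. CSTA, a protease inhibitor of the envelope, fell by 0.86, and IVL stood at 6.46 and 6.45 against 6.72 and 6.68, which did not pass the test. Without control replicate 1, control replicate 2, shp63 ON replicate 1 and shp63 ON replicate 2 the higher count was 9, 6, 9 and 11, and leaving out any array, the Nutlin-3 ones included, left 1 lower.

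Transcription factors of differentiating epithelium also had more higher than lower calls. Of 25 members 11 were higher, 2 lower and 12 not called, the same counts after cyclic loess, and 7 and 1 without control replicate 2. ELF3 stood at 8.50 and 8.52 in control, 9.59 and 9.62 in shp63 ON and 7.93 and 7.94 in Nutlin-3, a rise of 1.09 (SE 0.06, adjusted p 2.56e-05 by limma). CASZ1 rose by 0.99, with its other probe sets at 0.79 and 0.58, OVOL1 by 0.65 and KLF4 by 0.59. BNC1, a basal keratinocyte factor, fell by 0.37. ZNF750, a differentiation factor known as a p63 target, stood at 5.47 and 5.61 in control and 5.39 and 5.56 in shp63 ON and did not pass the test.

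Surface glycoproteins were among the larger rises. Of 24 CEACAM, mucin and related genes 12 were higher and 1 lower (10 and 2 after cyclic loess), and 6 were higher without control replicate 1. CEACAM6, an adhesion molecule of many carcinomas, stood at 6.35 and 6.34 in control and 8.62 and 7.89 in shp63 ON, 3.77-fold higher (SE 0.20 on the log2 scale, adjusted p 0.000493 by limma), with the shp63 ON arrays apart by more than for other named rises. The transmembrane mucins MUC16 (0.90) and MUC1 (0.89) and the glycoprotein PSCA (0.71) rose, and CD44, the hyaluronan receptor of basal cells, fell by 0.65. In the S100 and annexin list 8 of 25 were higher and 4 lower. S100P rose by 0.99 and ANXA9 by 1.32, and ANXA1 fell by 0.43. That list had 5 higher without control replicate 1 or shp63 ON replicate 1.

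**Figure D4:**
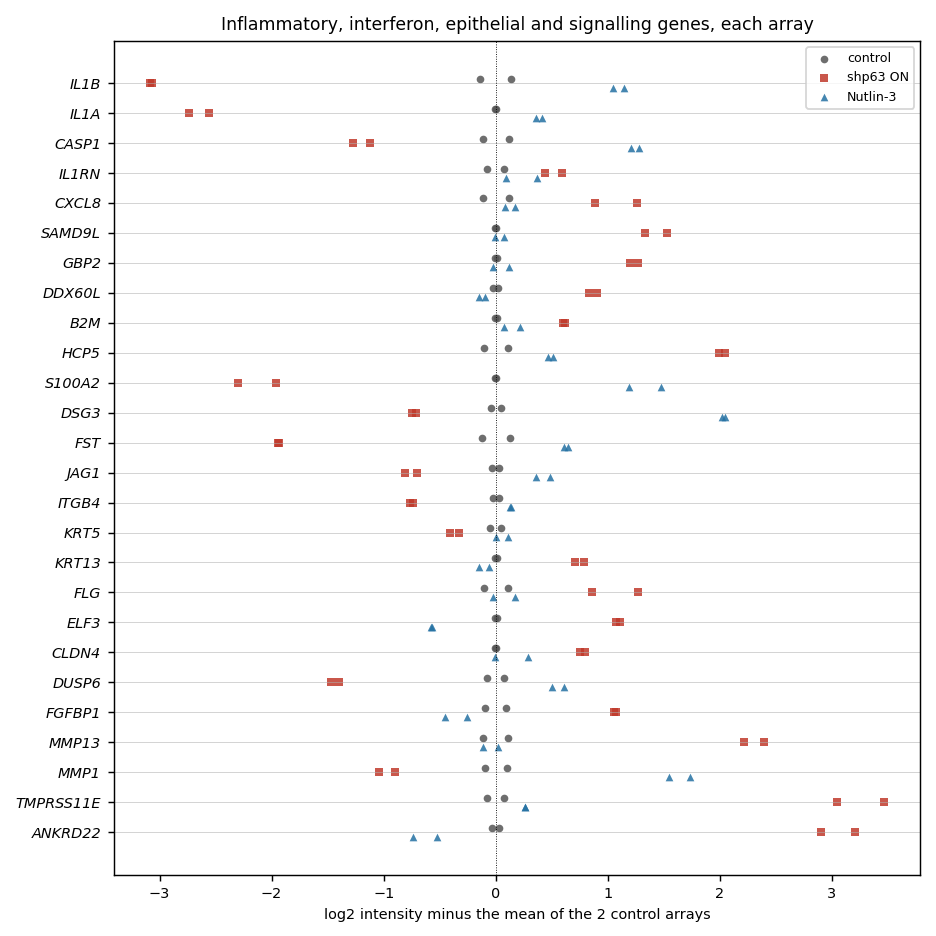
Log2 intensity of 26 inflammatory, interferon, epithelial, signalling and strongly changed genes on each array, minus the mean of the 2 control arrays of that gene; circles are control, squares shp63 ON and triangles Nutlin-3 arrays. IL1B, IL1A, S100A2, DSG3, FST and DUSP6 lie below 0 in shp63 ON and above 0 in Nutlin-3, and TMPRSS11E and ANKRD22 are about 3 above control.

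The mesenchymal list had more higher than lower calls (26.9% and 3.8%, against 19.7% and 16.5% of all genes). Its median of 0.13 became 0.08 relative to genes of the same level. Collagen genes were called in both directions. SNAI2, a repressor of epithelial genes, fell by 0.53, TWIST1 rose by 0.38 (not called without control replicate 2), ACTA2, smooth muscle actin, rose by 0.63, and VIM (0.13) and CDH2 (0.09) did not pass the test. Of 26 mesenchymal genes 7 were higher and 1 lower (2 after cyclic loess), with 4 and 2 higher without control replicate 1 and control replicate 2. Of 31 collagen genes 9 were higher (29.0%, against 19.7% of all genes) and 6 lower (19.4%, against 16.5%). COL8A1 rose by 0.71 and the crosslinking enzyme PLOD2 by 0.45, while COL4A5 (−0.67) and COL12A1 (−0.64) fell. The lower count was 3 without control replicate 1 or control replicate 2.

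Matrix proteases as a list were called about as often as all genes, with some large changes in both directions. MMP13, a collagenase, stood at 5.47 and 5.25 in control, 7.75 and 7.57 in shp63 ON and 5.38 and 5.25 in Nutlin-3, 4.93-fold higher in shp63 ON than in control (SE 0.10 on the log2 scale, adjusted p 9.87e-06 by limma). MMP1, the interstitial collagenase, went from 7.18 and 7.37 to 6.24 and 6.38 (−0.97) and stood at 9.01 and 8.82 in Nutlin-3. The membrane-bound MMP14 fell by 0.50, and the protease inhibitor SERPINE2 fell by 0.94. PLAUR, the urokinase receptor, rose by 0.95 and ADAM9 by 0.66. Of the 34 members 7 were higher (20.6%, against 19.7% of all genes) and 6 lower (17.6%, against 16.5%).

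Feedback and immediate early genes of the MAP kinase pathway went both ways. DUSP6, the phosphatase that switches off ERK, stood at 8.79 and 8.94 in control and 7.46 and 7.40 in shp63 ON, 2.70-fold lower (SE 0.08 on the log2 scale, adjusted p 2.46e-05 by limma). DUSP7 (−0.98), PHLDA1 (−0.91) and EGR1 (−0.64), an immediate early factor, fell too. NR4A1 rose by 0.66 and JUND by 0.40, and FOS stood at 8.0 and 8.10 against 8.04 and 7.95, which did not pass the test. SPRY1, another feedback inhibitor, stood at 7.03 and 6.74 in control and 7.2 and 7.43 in shp63 ON, a rise of 0.43 that was lost after cyclic loess and without control replicate 2 or shp63 ON replicate 2. Of 34 members 10 were higher and 11 lower, with a median of 0.08. The higher count was 6, 5 and 5 without control replicate 2, shp63 ON replicate 1 and shp63 ON replicate 2, and the lower count 7 without control replicate 2.

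Ligands and receptors upstream of that pathway changed in both directions. EGFR family genes were higher in 31.2% and lower in 31.2% of cases, and fibroblast growth factor genes in 36.8% and 26.3%. Over all genes the shares were 19.7% and 16.5%. In the EGFR family list 5 of 16 were higher (3 after cyclic loess) and 5 lower. The receptors ERBB3 (0.64) and ERBB2 (0.40) and the inhibitor ERRFI1 (0.59) rose, the call of ERBB2 being lost under the unmoderated analysis of variance. The ligands TGFA (−0.55), NRG1 (−0.53) and HBEGF (−0.32) fell, and these 3 calls were lost under the unmoderated analysis of variance. The call of HBEGF was also lost without control replicate 2 or shp63 ON replicate 2, and a second probe set of NRG1 stood at −1.01. The ligand NRG4 was called higher by 0.31, which was lost after cyclic loess and without any 1 of the 4 arrays, and LRIG3, of a family of receptor regulators, fell by 0.71. Without control replicate 2 or shp63 ON replicate 2 the list had 3 higher and 3 lower. In the fibroblast growth factor list FGF5 fell from 7.92 and 8.29 to 6.72 and 6.69 (−1.40), and FGFBP1, a carrier that releases these factors, rose from 7.18 and 7.36 to 8.35 and 8.33 (1.07). The list counted 7 of 19 higher (4 after cyclic loess) and 5 lower. Without control replicate 1, control replicate 2 or shp63 ON replicate 1 it had 3, 4 and 4 higher and 2, 1 and 2 lower.

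Notch, Wnt and TGF-beta genes changed in both directions. Notch genes were higher in 13.6% and lower in 27.3% of cases, Wnt genes in 34.2% and 15.8%, and TGF-beta genes in 34.4% and 18.8%. Over all genes the shares were 19.7% and 16.5%. Of 22 Notch genes 6 were lower and 3 higher: the ligands JAG1 (9.40 and 9.34 to 8.56 and 8.67), DLL1 (−0.59) and JAG2 (−0.40) and the target HES1 (−0.38) fell. HES2 (0.40) and HES4 (0.30), of the same family as HES1, were higher, HES4 not without control replicate 1, control replicate 2 or shp63 ON replicate 1. Without control replicate 2 the Notch list had 3 lower, and the call of HES1 was lost. Without either Nutlin-3 array it had 5 higher. Of 38 Wnt genes 13 were higher and 6 lower (8 and 6 after cyclic loess). WNT7B rose by 0.62 and WNT10A by 0.52, while WNT7A went from 8.10 and 8.17 to 7.30 and 7.51 (−0.72). The higher Wnt count was 6, 4, 8 and 8 without control replicate 1, control replicate 2, shp63 ON replicate 1 and shp63 ON replicate 2.

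In the TGF-beta, BMP and activin list 11 of 32 were higher and 6 lower, with 6 and 7 higher without control replicate 1 and control replicate 2, and 3 lower without control replicate 1. The decoy receptor BAMBI rose by 0.71 and ID2, a BMP target, by 0.61. FST, already described, and TGFBI (−0.40) fell. YAP target and Hippo genes as a list were called about as often as all genes, of which 19.7% were higher and 16.5% lower. Of its 25 members 5 were higher and 4 lower. CCN2, a matricellular YAP target, rose by 0.42, while AXL, a receptor kinase, fell by 0.60 and FJX1 by 1.49, from 9.03 and 9.04 to 7.53 and 7.56. The higher count was 1, 2, 3 and 3 without control replicate 1, control replicate 2, shp63 ON replicate 1 and shp63 ON replicate 2, and the lower count 2 without control replicate 1 or shp63 ON replicate 1. RGS2, which dampens G protein signalling, stood at 9.65 and 9.76 in control, 8.0 and 7.85 in shp63 ON and 11.54 and 11.48 in Nutlin-3, 3.43-fold lower in shp63 ON than in control (adjusted p 9.87e-06 by limma).

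Respiratory chain and tricarboxylic acid cycle genes had more higher than lower calls, although most members did not pass the test. Of 50 respiratory chain and ATP synthase genes 19 were higher and 1 lower (22 and 1 after cyclic loess), with a median of 0.16 and a level-adjusted median of 0.22. ATP5PO, a stalk subunit of ATP synthase, stood at 9.67 and 9.70 in control and 10.15 and 10.19 in shp63 ON (log2 fold change 0.49, adjusted p 0.00116 by limma), and UQCRC1, a core subunit of complex III, rose by 0.40. Leaving out control replicate 1, control replicate 2 or shp63 ON replicate 1 gave 8, 7 and 10 higher and 0 lower. Of 21 tricarboxylic acid cycle genes 6 were higher and 0 lower, and 3 were higher without control replicate 2. IDH2, the mitochondrial isocitrate dehydrogenase, rose from 10.00 and 9.93 to 10.67 and 10.68 (0.71), and OGDH by 0.56. PPARGC1A, a coactivator of mitochondrial genes named after its values were seen, stood at 10.26 and 10.19 in control, 11.32 and 11.23 in shp63 ON and 9.55 and 9.67 in Nutlin-3 (log2 fold change 1.05 against control, adjusted p 7.29e-05 by limma).

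The fatty acid oxidation and storage list had more higher calls and the fatty acid synthesis list more lower ones, with exceptions in both. Of 32 fatty acid oxidation and lipid storage genes 14 were higher and 2 lower (17 and 2 after cyclic loess). PNPLA2, the lipase that opens lipid droplets, rose by 0.62, from 9.98 and 10.00 to 10.63 and 10.58, and the peroxisomal thiolase ACAA1 by 0.51. DGAT2, an enzyme of triglyceride synthesis, rose by 0.525. The 2 lower members were the oxidation enzymes HADH (−0.41) and ECI2 (−0.33). Of 23 fatty acid synthesis and desaturation genes 10 were lower and 4 higher. The desaturases FADS1 (10.23 and 10.23 to 9.46 and 9.21) and FADS2 (−0.72), the elongase ELOVL5 (−0.74) and the synthase FASN (−0.66) fell. ACSL1, which activates long-chain fatty acids, rose by 0.58. The other higher members were ELOVL7 (0.51), ACACB (0.395) and ACSS2 (0.35). Sterol synthesis had 5 of 22 lower and 2 higher (2 and 2 after cyclic loess), with SQLE, an oxygen-requiring step, down by 0.65 and the regulator SREBF1 up by 0.56. CYP51A1 was called lower (−0.25), but the mean of its probe sets gave 0.198, and the call was lost without any 1 of the 4 arrays. The oxidation list had 8, 9 and 9 higher without control replicate 1, control replicate 2 and shp63 ON replicate 1, and 1 lower without control replicate 1 or shp63 ON replicate 1. The synthesis list had 6 lower without control replicate 2. The sterol list had 2, 2, 2 and 3 lower without control replicate 1, control replicate 2, shp63 ON replicate 1 and shp63 ON replicate 2, and 1 higher without any 1 of the first 3.

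One-carbon and redox genes had more lower than higher calls, and glycolysis genes were called in both directions. One-carbon genes were higher in 4.5% and lower in 36.4% of cases, and pentose phosphate and NRF2 genes in 10.0% and 36.7%. Glycolysis and hypoxia genes were higher in 15.2% and lower in 24.2%, with a median of −0.01, 15 members above 0 and 18 below. Over all genes the shares were 19.7% and 16.5%. Of 22 one-carbon, serine and amino acid genes 8 were lower and 1 higher: MTHFD2, the mitochondrial folate enzyme, fell by 0.95 (second probe set −0.74) and MTHFD1 fell by 0.92. SLC1A5, a glutamine carrier, fell by 1.29, but its other probe set stood at −0.04. ASS1, which makes argininosuccinate, rose by 0.67. The higher count was 2 without either Nutlin-3 array or shp63 ON replicate 2. Of 30 pentose phosphate and NRF2 genes 11 were lower and 3 higher (2 after cyclic loess), led by GPX2 and the cystine carrier SLC7A11 (−0.74). Without control replicate 1, control replicate 2, shp63 ON replicate 1 and shp63 ON replicate 2 the lower count was 4, 5, 5 and 5, and the higher count was 1 without control replicate 1 or shp63 ON replicate 2. Of 33 glycolysis and hypoxia genes 8 were lower and 5 higher: PDK1 (−0.70), PFKFB3 (−0.69) and LDHB (−0.50) fell, and the glucose carriers SLC2A3 (0.88) and SLC2A1 (0.41) rose. That list had 5, 4 and 5 lower without control replicate 1, control replicate 2 and shp63 ON replicate 2, and 3 higher without control replicate 1.

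Quiescence, lysosome and autophagy genes were called in both directions. Lysosome genes were higher in 23.1% and lower in 7.7% of cases, and autophagy genes in 17.1% and 14.3%. Over all genes the shares were 19.7% and 16.5%. Of 30 FOXO target and quiescence genes 10 were higher (33.3%, against 19.7% of all genes) and 4 lower, with CITED2, a transcriptional coregulator, up by 0.87. The higher count was 4 and 6 without control replicate 1 and control replicate 2, and the lower count 2 without control replicate 1, shp63 ON replicate 1 or shp63 ON replicate 2. Of 39 lysosome genes 9 were higher and 3 lower (2 after cyclic loess), among them SMPD1, the acid sphingomyelinase (0.62); 5 were higher without control replicate 1 or shp63 ON replicate 1, and 0, 0, 1 and 0 lower without control replicate 1, control replicate 2, shp63 ON replicate 1 and shp63 ON replicate 2. Of 35 autophagy genes 6 were higher (9 after cyclic loess) and 5 lower, including WIPI1 (0.70) and DRAM1, a p53-induced lysosomal protein (−1.0). That list had 3 higher without control replicate 1 or control replicate 2, and 2, 2, 3 and 3 lower without the 4 arrays in the same order.

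Transporters outside these pathways included several of the largest changes. SLC28A3, a concentrative nucleoside carrier, stood at 6.59 and 6.86 in control and 9.58 and 9.26 in shp63 ON, 6.50-fold higher (SE 0.14 on the log2 scale, adjusted p 2.22e-05 by limma). SLC29A1, the equilibrative nucleoside carrier, went from 9.84 and 9.96 to 8.40 and 8.38 (−1.51). SLC6A14, an amino acid carrier, rose by 1.83, SLC2A12 by 1.29 and the urate carrier SLC2A9 fell by 1.33. Over 359 solute carriers 93 were higher and 48 lower (60 and 50 after cyclic loess). Higher calls numbered 44, 39, 49 and 58 without control replicate 1, control replicate 2, shp63 ON replicate 1 and shp63 ON replicate 2, and the lower count 27 without control replicate 2. Among 43 ABC transporters 6 rose (4 after cyclic loess) and 6 fell: ABCC1, a drug exporter, rose by 0.69, and ABCE1, which recycles ribosomes, fell by 1.02. ABCA12, a lipid carrier of keratinocytes, fell by 0.84 and stood higher in Nutlin-3 (11.21 and 11.17 against 8.41 and 8.49 in control). The ABC list had 3 higher without control replicate 1.

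**Figure D5:**
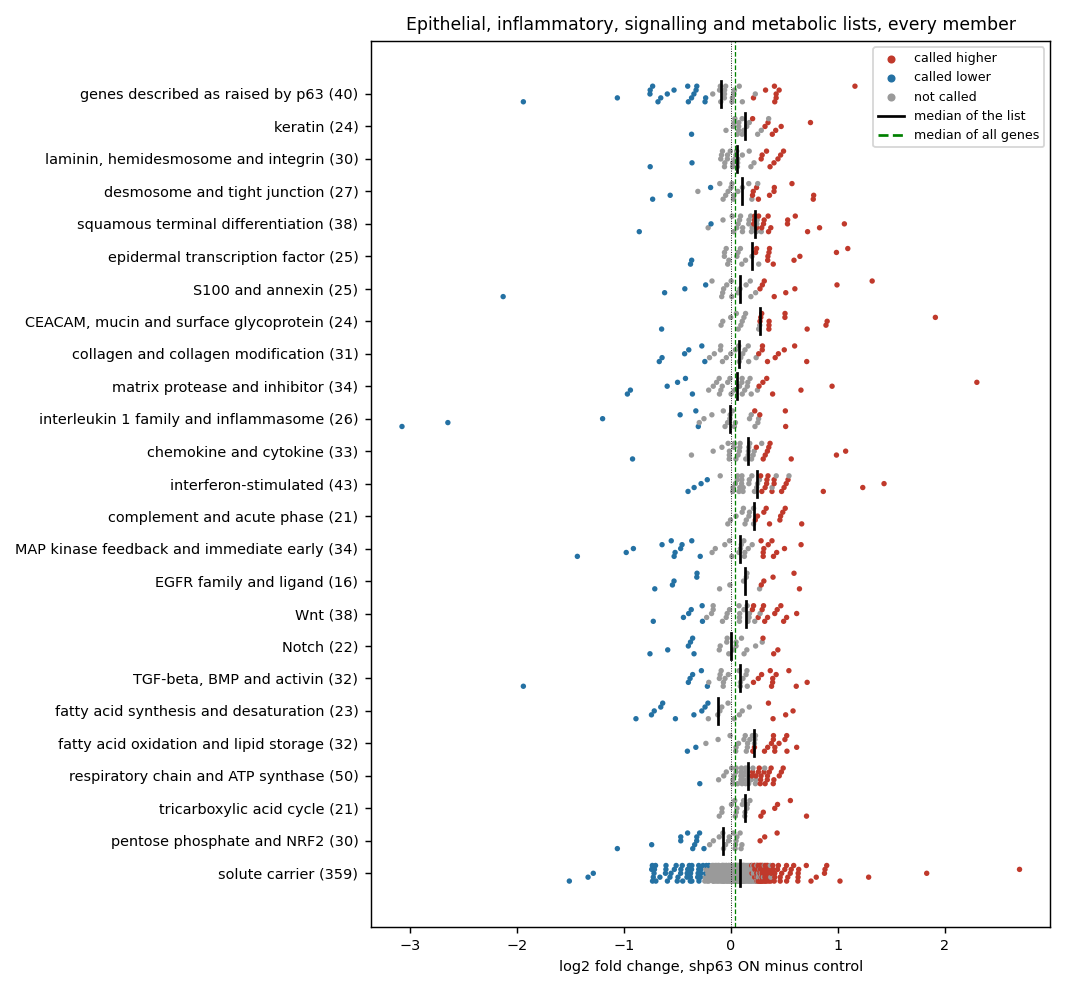
Log2 fold change (shp63 ON minus control) of every measured member of 25 epithelial, inflammatory, signalling and metabolic lists, with the number of members in brackets; red points were called higher, blue lower and grey neither, and the black bar is the list's median. Medians lie between −0.12 and 0.27, and single members such as IL1B (−3.08), FST (−1.94), MMP13 (2.30) and SLC28A3 (2.70) stand far from their lists.

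The 20 largest rises came from several functions. TMPRSS11E, a serine protease of squamous epithelium, stood at 6.28 and 6.43 in control and 9.82 and 9.40 in shp63 ON, 9.53-fold higher (SE 0.13 on the log2 scale, adjusted p 7.52e-06 by limma), with a second probe set at 1.43. ANKRD22 stood at 6.41 and 6.34 against 9.28 and 9.58, 8.32-fold higher, and at 5.63 and 5.86 in Nutlin-3. PEG10, an imprinted gene of retrotransposon origin, rose by 2.09, the transcription factor ZHX2 by 1.49, the glycogen-targeting PPP1R3C by 1.47 and EDN2, an endothelin, by 1.44. MACC1 rose by 1.41, the adenylate cyclase ADCY9 by 1.32 and the metalloreductase STEAP4 by 1.28. Among the 20 largest falls FEZ1, an adaptor of kinesin transport, was neither a cell division nor an interleukin gene: it stood at 8.90 and 9.03 in control, 6.39 and 6.44 in shp63 ON and 9.65 and 9.57 in Nutlin-3, 5.86-fold lower in shp63 ON than in control.

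Counts of gene families with many dim members moved with the level correction. Of 359 olfactory receptors, which these cells are not known to use, 24 were higher and 5 lower, and after cyclic loess 6 were higher and 15 lower. Of 85 potassium channel genes 30 were higher and 3 lower, and 9 and 5 after cyclic loess. KCNK15 rose by 0.82 and KCNJ15 fell by 1.39, and both passed the test after cyclic loess too. The numbered zinc finger genes lie nearer the middle of the array, with a median level of 7.16 against 5.11 for the olfactory receptors. Of these 480 genes 38 were higher and 105 lower (26 and 128 after cyclic loess), with ZNF724 (−1.94) and ZNF814 (−1.36) furthest down. The olfactory higher count was 4, 13 and 11 without control replicate 2, shp63 ON replicate 1 and shp63 ON replicate 2, and the lower count was 1, 22, 2 and 0 without control replicate 1, control replicate 2, shp63 ON replicate 1 and shp63 ON replicate 2. The channel higher count was 14, 3, 11 and 16 without those 4 arrays, and the lower count 1 without control replicate 1. The zinc finger counts without them were 14, 14, 19 and 22 higher, and 66, 54 and 64 lower without the first 3.

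Marker lists of other cell types had more higher than lower calls, most of which were lost after cyclic loess in the airway, mesothelial and fibroblast lists but not in the leukocyte list. Of 13 airway and alveolar markers 9 were higher, but 2 after cyclic loess, and the list's mean log2 intensity was 6.22 and 6.19 in control and 6.53 and 6.48 in shp63 ON. SCGB3A1, a secretory airway protein, rose from 7.12 and 7.18 to 7.97 and 7.96 and was called after cyclic loess too. Of 16 leukocyte markers 4 were higher, and 4 after cyclic loess: CD68, a lysosomal protein made by many cell types, rose by 0.75, and CD14 by 0.62, while PTPRC did not pass the test. Of 11 endothelial, 9 mesothelial and 13 fibroblast markers 4, 4 and 3 were higher, and 2, 1 and 0 after cyclic loess; 0, 1 and 1 were lower, and 1, 1 and 0 after it. Mean levels in control and shp63 ON arrays were 6.06, 5.97, 6.24 and 6.24 for the leukocyte list, 5.86, 5.80, 6.02 and 5.98 for the endothelial list, 6.63, 6.69, 6.87 and 6.78 for the mesothelial list, and 6.19, 6.17, 6.25 and 6.22 for the fibroblast list. The airway list had 4, 3 and 3 higher without control replicate 1, control replicate 2 and shp63 ON replicate 1, the endothelial list 2, 1 and 2, the mesothelial list 0 each and 2 without shp63 ON replicate 2, and the fibroblast list 1, 0 and 0, and 0 without shp63 ON replicate 2. The part of other cells in any result was not tested.

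Set against Nutlin-3 directly, shp63 ON was the lower group for genes of growth. Ribosome biogenesis had 37 of 38 members lower in shp63 ON than in Nutlin-3 and 0 higher, against 24.0% and 27.5% of all genes, and nucleotide supply 14 of 23 lower and 0 higher. TYMS stood at 9.74 and 9.53 in Nutlin-3, a difference of −2.24 (adjusted p 4.94e-06 by limma). The clamp PCNA stood at 8.46 and 8.45 in control, 7.02 and 6.85 in shp63 ON and 8.72 and 8.47 in Nutlin-3. Origin licensing went the other way in 15 of 28 genes, which were higher in shp63 ON than in Nutlin-3, with 7 lower; DTL was higher by 1.63 and CCNE2 by 1.61. Mitotic entry had 22 of 35 lower in shp63 ON and 6 higher. The groups also differ in agent and in time, 48 h against 12 h, so agent, time and the hairpin cannot be told apart in these differences.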

How the data were processed

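Affymetrix HuGene ST arrays measured total RNA of H226, with 2 arrays in each of 3 groups named by the titles. The table deposited by the authors holds normalized log2 intensities, a scale recognised from their range. Partek is named in the submitters' processing notes and a one-way analysis of variance in the design text. How background, normalization and probe set summary were done is not given in the sources used. Precision is limited by the number of arrays.

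Of 32321 probe sets 19158 name 1 gene, 1388 several and 11775 none. Those naming 1 gene gave 18404 genes, with the brightest probe set standing for each (637 genes had several). The shRNA's target and some list members were not analysed here. A model with 3 group means over all the arrays was fitted by limma 3.58.1 under R 4.3.3 (3 residual and 4.52 prior degrees of freedom), without a block, and p-values were adjusted by Benjamini-Hochberg over all genes and called under 0.05. With 2 arrays against 2, an exact two-sided permutation test of 1 gene cannot go below 0.333, so the p-values rest on the pooled spread. The fit was tested on simulated data. A level-adjusted change is the log2 fold change minus the running median of genes of neighbouring level.

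Named genes are the 20 largest called rises and falls without array overlap, up to 4 called members per list and direction, members with a defining or opposite role, and the genes of the promoters shown. The members and lists were chosen with earlier results of these data known; a few called genes outside the rule (MYC, PPARGC1A, E2F1, NDC80, SAMD9, CDH1, H2AZ1, PCNA) were chosen after their values were seen. Lists are described by counts and medians, with no set test. The replicate numbers do not pair the arrays: same-numbered control and shp63 ON arrays correlated at −0.0162 in their deviations from the group means. Alternatives were cyclic loess, quantile normalization, median centring, other eBayes settings, the 4 arrays alone, unmoderated analysis of variance, the mean of probe sets, a mean level of at least 6, the replicate block, a 1.5-fold threshold and each array left out. Promoter letters were searched in the 250 bases before the start on both strands.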

Additional observations from a re-analysis of the deposited data

How the results depend on the processing

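Of 441 named genes 268 kept their call under each of the 16 alternatives that could be run on them; the minimum mean level was run on the 417 of them that reach it. Calls were lost most often under the unmoderated analysis of variance with adjusted p-values (149 genes), and for 40 genes after cyclic loess. Such losses are not marked at every named gene above. That analysis called 1338 genes higher and 1665 lower over all genes. A threshold of 1.5-fold left 314 higher and 858 lower. Leaving out each array in turn gave 1639 to 3858 genes higher and 1815 to 3102 lower, with the lowest counts without control replicate 2 and the highest without either Nutlin-3 array; with 1 array left in a group its spread is taken from the other groups. The replicate block, although the numbers do not pair the arrays, called 3591 higher and 2939 lower. The sign turned in 2 named genes when all probe sets of a gene were averaged: CYP51A1 stood at 0.198 against −0.253, and RPS28 at −0.06 against 0.291. The cause of these differences was not tested. With 2 arrays a group and 1 hairpin, small changes and counts of dim lists are the least secure, and weak signal near background limits dim genes.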
